A study of Homo sapiens with 8 samples.

Results

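The genes described here are the chemokines, interleukins and their receptors that HL-60 cells expressed under decitabine, RG3039 or both. They were chosen by name and level. Of 60240 genes in the deposited table, 154 have names of the chemokine (CCL, CXCL, XCL, CX3CL), chemokine receptor (CCR, CXCR, CX3CR) or interleukin (IL) families without a hyphen. Of these, 69 were selected on a mean normalised value of at least 10 over all 8 libraries, among 17534 genes at that level. They comprised 17 chemokine ligands, 8 interleukins, 12 chemokine receptors, 28 interleukin receptor subunits, 3 antagonists or decoys and 1 pseudogene. Of the other 85 names, 49 were listed at 0 in every library and 36 lay above 0 but under the threshold.

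HL-60 is a human promyelocytic leukaemia line, and the labels give its genotype as WT. The 4 treatments, each in 2 libraries from duplicate wells, were decitabine, RG3039, both drugs together (the combination) and DMSO, the solvent. Decitabine was given at 100 nM, 3 times from day 0 to day 2, and RG3039 at 2 µM once, on day 0. All groups were harvested at 72 h and measured by 3′ RNA sequencing. This counts a tag near the end of each transcript, and no length correction was made here. Levels of different genes are compared by normalised value only, since how reads were assigned to genes is not known. Decitabine is a nucleoside that inhibits DNA methylation, and RG3039 inhibits the scavenger decapping enzyme DcpS. Nothing in the labels ties the wells to separate cultures, so the p-values measure the spread between duplicate wells of 1 cell line, which may be technical, and fewer cells expressing a gene cannot be told apart from less RNA per cell.

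Chemokines are small secreted proteins that attract leukocytes through G-protein-coupled receptors, and one receptor often binds several ligands while one ligand often binds several receptors. Interleukins act mostly through paired receptor chains, of which some are shared between cytokines, such as the common gamma chain, gp130 and IL17RA. Antagonists and decoy receptors of the IL-1 system bind receptor or cytokine without starting a signal. Mature monocytes and neutrophils are rich sources of both inflammatory chemokines and IL-1 family proteins, and promyelocytic cells such as HL-60 can be driven towards either lineage in culture.

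Estimated depth was 20700000 to 40900000 reads a library, and 1 read was worth 0.702 to 1.51 normalised units, so that a value of 10 stood for 6.6 to 14.2 reads. The 10 markers of promyelocytic cells were present in every library, with summed values of 183024 and 226841 under decitabine, 126289.8 and 144248 under RG3039 and 109707 and 123574 under the combination, against 184665 and 222553 under DMSO. Most of each sum was MPO, with 69218 and 74639 under the combination, against 130999.5 and 165579.5 under DMSO. ELANE, AZU1, PRTN3, CTSG, CD33 and CEBPA were also lower in both combination libraries, and SPI1 overlapped. CEBPE, with 6514 and 7476 against 2368 and 2700, and MYB, with 12504 and 15108 against 8995 and 10147, were higher there. Of 23 markers of other cell types, MS4A1, CDH5, KRT5 and KRT19 were at 0 in every library and 10 were under 10 in all of them. The 7 T and NK cell markers summed to 355 and 456 under decitabine, 53.7 and 77.1 under RG3039 and 423 and 634 under the combination, against 116 and 145 under DMSO. Single markers moved in different directions. GNLY had 151 and 218 under decitabine, 18.8 and 20.6 under RG3039 and 283 and 356 under the combination, against 4.53 and 0 under DMSO, while NKG7 had 156 and 172.5 under decitabine, 24.2 and 39.8 under RG3039 and 31.6 and 45.6 under the combination, against 99.9 and 134 under DMSO. CD3D had 61.3 and 104 under the combination, against 6.03 and 1.505 under DMSO, and CD3E 41.6 and 94.1, against 3.03 and 1.51. CD3G, with 4.12 and 22.8 against 2.34 and 0, and CD2, with 0.984 and 12.1 against 0 and 0, were lower in level. CD8A was at 0 in both combination libraries, against 0 and 7.55 under DMSO. The 4 B and plasma cell markers summed to 105 and 121 under decitabine, 39.0 and 95.5 under RG3039 and 152 and 164 under the combination, against 39.4 and 27.2 under DMSO. The part of these markers in the cytokine gene results was not tested.

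Both single drugs raised more of these genes than they lowered, and the combination raised the most. A gene is called here when the adjusted p of limma's moderated test on log2(value + 1), with Benjamini-Hochberg adjustment over all 17534 genes, was under 0.05. Decitabine against DMSO raised 6 of the 69 genes and lowered 1, where 1.74% of all genes were called higher and 0.405% lower. RG3039 against DMSO raised 14 and lowered 5, where 4.53% of all genes were called higher and 3.59% lower. The combination against DMSO raised 33 and lowered 3, where 11.4% of all genes were called higher and 12.7% lower. In the median the 69 genes had log2 fold changes of 0.61, 0.61 and 1.50 under decitabine, RG3039 and the combination, beside 0.01, -0.00 and 0.04 over all genes tested.

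The rule also admits genes that pass only through a treated group, which then had to be higher there. The mean in DMSO was under 10 for 15 of the 69, of which 11 were called higher under the combination. The 11 were CCL3, CCL3L1, CCL4, CCL22, CCL1, CXCL16, CCL20, IL12B, IL18R1, CXCR5 and CCR3. Among the 54 with a DMSO mean of 10 or more, 4 were called higher and 1 lower under decitabine, 10 higher and 5 lower under RG3039, and 22 higher and 3 lower under the combination, with a median log2 fold change of 0.90 in the combination. These counts describe genes that were selected with earlier results in view. The matching share over all genes with a DMSO mean of 10 or more was not computed.

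Ligands had the higher medians in each of these comparisons, and no ligand was called lower. Of the 25 ligands, 4 were called higher under decitabine, 9 under RG3039 and 16 under the combination, with median log2 fold changes of 1.18, 1.53 and 2.57. Of the 40 receptor genes, 2 were called higher and 1 lower under decitabine, 4 higher and 5 lower under RG3039, and 15 higher and 3 lower under the combination, with medians of 0.49, 0.39 and 0.97. Genes low in DMSO were more frequent among the ligands, 9 of 25, than among the receptors, 6 of 40. With those set aside, the combination raised 8 of 16 ligands (median 1.69), and among 34 receptors it raised 12 and lowered 3 (median 0.78). Over all genes, 1.74% were called higher and 0.405% lower under decitabine, 4.53% and 3.59% under RG3039, and 11.4% and 12.7% under the combination. These shares cover all tested genes whatever their level in DMSO, so they do not match the counts with low genes set aside. The ligands count CCL3L1 and CCL4L2 beside CCL3 and CCL4, though the split of reads within these pairs is uncertain. The difference between ligands and receptors was not tested.

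**Figure D1:**
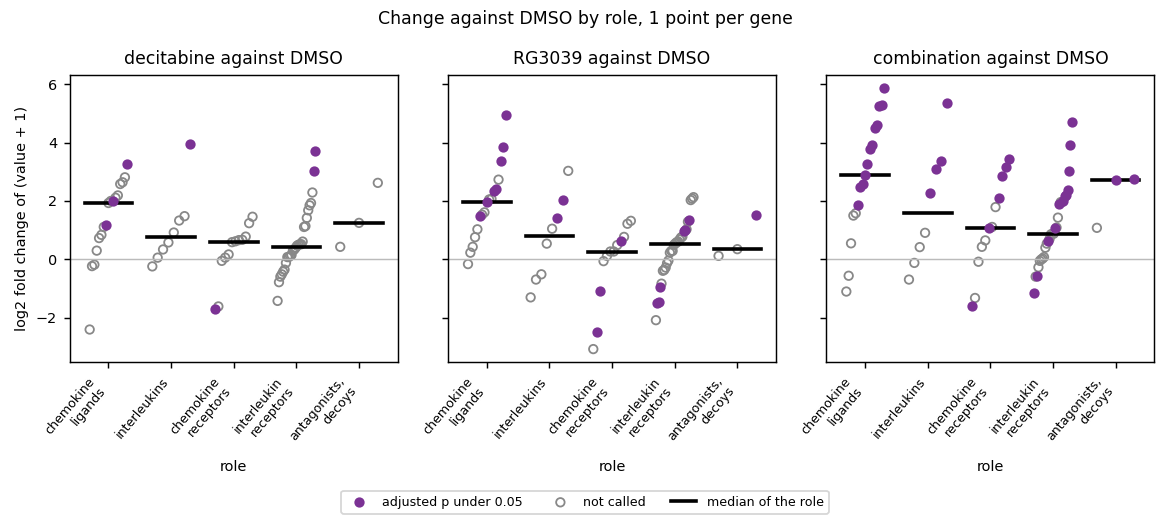
Log2 fold change of (value + 1) against DMSO for each gene, by role, under decitabine, RG3039 and the combination; filled points have an adjusted p under 0.05 (limma), open points do not, and the bar is the median of the genes of that role. Chemokine ligands had the highest median in the combination panel, 2.90, and the called points below 0 were all receptor genes.

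Promoter sequences are shown for a few genes whose values carry the results below. RefSeq promoters (GRCh38.p14) were found for 56 of the 69 genes, and not for CCL5, CCL2, CCL4, IL17RA and 9 others. The start is that of the RefSeq table, which can differ from the start of the GENCODE gene. In the 250 bases before it these 56 held few CG pairs, with a median of 3.5 beside 11.0 over all 35116 promoters. The letter patterns searched, on both strands, were TGANTCA (the AP-1 form), GGANTTTCC (the NF-kB form), TTCNNNGAA (the STAT form) and TATAAA (the TATA form). The AP-1 form was present in 9 of the 56 (16.1%, beside 6.57% of all promoters) and the NF-kB form in 6 (10.7%, beside 1.45%). The STAT form was present in 6 (10.7%, beside 6.57%) and the TATA form in 10 (17.9%, beside 10.7%). The STAT and NF-kB forms can overlap. The NF-kB form lay in CXCL8, IL32, IL27RA, CXCL5, CXCL6 and IL18RAP, of which only CXCL8 and IL32 were called against DMSO. The first pair shown belongs to ligands called higher in the combination, with capitals marking the AP-1, NF-kB and TATA forms in that order for CXCL8 and the TATA form for CCL3.
CXCL8: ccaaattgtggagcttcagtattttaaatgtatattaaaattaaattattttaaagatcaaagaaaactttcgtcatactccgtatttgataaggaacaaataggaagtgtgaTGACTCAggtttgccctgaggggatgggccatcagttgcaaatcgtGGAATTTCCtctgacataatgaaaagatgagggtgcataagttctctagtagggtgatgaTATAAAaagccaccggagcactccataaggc
CCL3: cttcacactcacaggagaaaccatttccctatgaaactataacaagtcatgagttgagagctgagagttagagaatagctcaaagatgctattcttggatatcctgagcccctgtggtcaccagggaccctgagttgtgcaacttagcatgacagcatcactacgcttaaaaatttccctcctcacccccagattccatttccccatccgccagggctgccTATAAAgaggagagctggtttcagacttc
The 250 bases of CXCL8 at chr4:73740319-73740568 (plus strand) held these forms from positions -137, -91 and -31 relative to the start. Those of CCL3 at chr17:36090144-36090393 (minus strand) held the TATA form at -29.

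Next come IL32 and IL1RL1, the genes with the greatest called log2 fold change under decitabine, and IL1B with its antagonist IL1RN. Capitals mark 2 NF-kB forms in IL32, the AP-1 form in IL1RL1 and IL1RN and the STAT form in IL1B.
IL32: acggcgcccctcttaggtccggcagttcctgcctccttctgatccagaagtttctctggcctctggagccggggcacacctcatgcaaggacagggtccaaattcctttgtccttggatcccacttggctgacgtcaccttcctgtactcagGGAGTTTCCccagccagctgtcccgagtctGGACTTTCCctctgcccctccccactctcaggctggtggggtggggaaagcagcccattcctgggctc
IL1RL1: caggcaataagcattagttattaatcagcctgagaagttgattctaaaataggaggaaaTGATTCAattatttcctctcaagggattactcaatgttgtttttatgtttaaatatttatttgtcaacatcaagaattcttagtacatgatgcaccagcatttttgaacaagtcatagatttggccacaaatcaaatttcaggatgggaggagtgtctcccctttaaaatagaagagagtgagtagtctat
IL1B: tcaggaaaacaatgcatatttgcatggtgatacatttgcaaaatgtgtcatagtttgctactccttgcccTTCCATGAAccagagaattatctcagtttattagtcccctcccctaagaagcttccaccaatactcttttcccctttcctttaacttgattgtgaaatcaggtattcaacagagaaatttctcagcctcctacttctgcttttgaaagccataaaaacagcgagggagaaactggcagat
IL1RN: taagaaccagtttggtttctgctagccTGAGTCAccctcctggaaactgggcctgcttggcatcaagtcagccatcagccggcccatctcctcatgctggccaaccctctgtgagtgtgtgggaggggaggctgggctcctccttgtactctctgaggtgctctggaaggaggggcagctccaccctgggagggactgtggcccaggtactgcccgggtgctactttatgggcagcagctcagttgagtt
The windows are those of IL32 at chr16:3065153-3065402 (plus strand), IL1RL1 at chr2:102337007-102337256 (plus strand), IL1B at chr2:112836780-112837029 (minus strand) and IL1RN at chr2:113117721-113117970 (plus strand). The IL1RL1 window held 0 CG pairs and the IL32 window 6. CCR2, lower under every treatment, also held the AP-1 form, at -212, in CCR2 at chr3:46353861-46354110 (plus strand).
CCR2: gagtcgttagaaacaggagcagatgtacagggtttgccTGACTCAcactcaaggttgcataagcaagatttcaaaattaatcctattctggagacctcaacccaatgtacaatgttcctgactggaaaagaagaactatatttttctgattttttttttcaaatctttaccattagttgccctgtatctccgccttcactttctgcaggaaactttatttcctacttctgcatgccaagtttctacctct
Set against the GENCODE genes, the windows of IL1RL1, IL1RN and CCR2 lie wholly inside the gene, and those of CXCL8, CCL3, IL32 and IL1B overlap its beginning. A match is a description of letters and not evidence that a factor was bound.

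CCL5, which attracts T cells and monocytes, was the most abundant ligand to change. Its normalised values were 1553 and 1859 under decitabine, 2041 and 2177 under RG3039 and 6815 and 7629 under the combination, against 699 and 800.0 under DMSO. The groups did not overlap, and the combination stood apart from both single drugs. Decitabine raised CCL5 (log2 fold change 1.18 ± 0.16, adjusted p = 0.00581), RG3039 did so by a similar amount (log2 fold change 1.49 ± 0.16, adjusted p = 0.000883) and the combination by more (log2 fold change 3.27 ± 0.16, adjusted p = 5.09e-06). The decitabine call was lost without decitabine replicate 2 (adjusted p = 0.0679).

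CCL3 and CCL4 attract monocytes and T cells, and each has a near-identical copy, CCL3L1 and CCL4L2. Over the last 300 bases of the transcript CCL3 and CCL3L1 were 96.3% identical, and CCL4 and CCL4L2 94.3%, so the split of reads within a pair is uncertain. CCL3 had 56.9 and 63.7 under decitabine, 29.7 and 36 under RG3039 and 204 and 287 under the combination, against 9.13 and 3.04 under DMSO. CCL3L1 had 29.1 and 35.6 under decitabine, 91.5 and 78.8 under RG3039 and 275 and 375 under the combination, against 6.08 and 8.57 under DMSO. With the pair added together the values were 86.0 and 99.3 under decitabine, 121 and 115 under RG3039 and 479.6 and 662 under the combination, against 15.2 and 11.6 under DMSO. Every treated library lay above both DMSO libraries, and the combination lay above all others. Both copies were called higher under all 3 treatments: CCL3 under decitabine (log2 fold change 3.26 ± 0.53, adjusted p = 0.0171), RG3039 (log2 fold change 2.40 ± 0.53, adjusted p = 0.0252) and the combination (log2 fold change 5.25 ± 0.53, adjusted p = 0.000213), and CCL3L1 likewise (log2 fold change 2.01 ± 0.42, adjusted p = 0.0436 under decitabine, log2 fold change 3.38 ± 0.42, adjusted p = 0.0016 under RG3039 and log2 fold change 5.29 ± 0.42, adjusted p = 6.72e-05 under the combination). Under decitabine the CCL3 call was lost without either decitabine library, combination replicate 2 or DMSO replicate 2 (adjusted p = 0.0526 to 0.116) and that of CCL3L1 without any 1 of the 8 libraries (adjusted p = 0.0742 to 0.169), and under RG3039 the CCL3 call was lost without either RG3039 library, either combination library or DMSO replicate 2 (adjusted p = 0.0528 to 0.131).

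CCL4 had 35.1 and 27 in decitabine wells, 36.3 and 11.9 in RG3039 wells and 132 and 108 in combination wells, against 0.757 and 15.1 in DMSO wells. CCL4L2 had 17.7 and 8.42 in decitabine wells, 9.52 and 16.1 in RG3039 wells and 97.1 and 79.8 in combination wells, against 16.1 and 12.2 in DMSO wells. The pair together summed to 52.8 and 35.4 under decitabine, 45.8 and 28.1 under RG3039 and 229 and 188 under the combination, against 16.8 and 27.3 under DMSO. The combination was called higher against DMSO, and neither single drug was, for CCL4 (log2 fold change 4.50 ± 0.97, adjusted p = 0.0088) and for CCL4L2 (log2 fold change 2.57 ± 0.63, adjusted p = 0.0158). The CCL4 call was lost without combination replicate 1 (adjusted p = 0.062) and that of CCL4L2 without either combination library or DMSO replicate 2 (adjusted p = 0.0699 to 0.11).

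CXCL8, the neutrophil attractant that binds CXCR1 and CXCR2, had 507 and 376 under decitabine, 1114 and 799 under RG3039 and 1287 and 1466 under the combination, against 231 and 256 under DMSO. RG3039 and the combination raised it (log2 fold change 1.95 ± 0.23, adjusted p = 0.00136, and log2 fold change 2.49 ± 0.23, adjusted p = 0.000154), and decitabine gave log2 fold change 0.84 ± 0.23, adjusted p = 0.097. CCL2, the monocyte attractant that binds CCR2, had 464 and 191 under decitabine, 629.8 and 196 under RG3039 and 501 and 531 under the combination, against 78.2 and 59.5 under DMSO. Here the duplicate wells differed widely under both single drugs, though each lay above both DMSO libraries, while the combination pair agreed closely. CCL2 was called higher under RG3039 (log2 fold change 2.35 ± 0.54, adjusted p = 0.028) and the combination (log2 fold change 2.90 ± 0.54, adjusted p = 0.00441), and the RG3039 call was lost without RG3039 replicate 1, either combination library or either DMSO library (adjusted p = 0.0522 to 0.154).

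CCL22, a ligand of CCR4, and CCL20, the ligand of CCR6, were low in the treated wells and at most a trace in DMSO. CCL22 had 9.44 and 7.28 in decitabine wells, 30.9 and 51.7 in RG3039 wells and 79.1 and 75.1 in combination wells, against 0.757 and 0 in DMSO wells. CCL20 had 3.21 and 8.24 in decitabine wells, 9.59 and 18.2 in RG3039 wells and 23.1 and 23.4 in combination wells, against 0 and 0 in DMSO wells. Both were called higher under RG3039, CCL22 with adjusted p = 0.00361 and CCL20 with adjusted p = 0.0455, and under the combination, with adjusted p = 0.000561 and adjusted p = 0.00917. No fold change is given for these genes, since CCL20 was listed at 0 in DMSO and CCL22 at 0 in one DMSO library. The CCL20 calls were lost without decitabine replicate 2, either RG3039 library, either combination library or either DMSO library (adjusted p = 0.0578 to 0.217) under RG3039 and without either combination library (adjusted p = 0.055 to 0.0606) under the combination.

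CCL23, CCL1 and CXCL16 were called higher in the combination and in neither single drug. CCL23, a ligand of CCR1, had 150.4 and 217 in decitabine wells, 358 and 276 in RG3039 wells and 364 and 439 in combination wells, against 60.9 and 192 in DMSO wells. Its fit in the combination gave log2 fold change 1.87 ± 0.47, adjusted p = 0.0174. CCL1, the ligand of CCR8, had 14.8 and 19.8 in decitabine wells, 25.5 and 9.55 in RG3039 wells and 59.1 and 48.4 in combination wells, against 5.3 and 1.51 in DMSO wells. The combination gave log2 fold change 3.78 ± 0.78, adjusted p = 0.00722. CXCL16, a membrane-bound chemokine that binds CXCR6, had 10.1 and 8.61 in decitabine wells, 22.6 and 11.4 in RG3039 wells and 37.4 and 37.8 in combination wells, against 0 and 5.65 in DMSO wells. It was called in the combination with adjusted p = 0.0191, and no fold change is given since one DMSO library was at 0. All combination libraries lay above the DMSO pair, although the DMSO wells of each gene differed widely. These calls were lost for CCL23 without either combination library or DMSO replicate 1 (adjusted p = 0.0614 to 0.096), for CCL1 without combination replicate 1 (adjusted p = 0.0585) and for CXCL16 without either combination library or DMSO replicate 1 (adjusted p = 0.0687 to 0.0957).

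The remaining chemokines were not called against DMSO. CXCL14, an epithelial chemokine, was the most abundant chemokine of some libraries, with 6941 and 918 under decitabine, 4002 and 983 under RG3039 and 535 and 559 under the combination, against 3627 and 377 under DMSO. Replicate 1 was 7.56, 4.07 and 9.61 times replicate 2 under decitabine, RG3039 and DMSO, and 0.958 times it under the combination, so that treatments could not be separated. Among all 17534 genes, 15 had replicate 1 over 4-fold higher in those same 3 groups and 5 had replicate 2 over 4-fold higher. CX3CL1, CXCL5 and CCL28 were the others, ranging from 13.3 to 164 over all libraries. Every treated library of CCL28, a mucosal chemokine, lay above both DMSO libraries, with log2 fold change 1.93 ± 0.52, adjusted p = 0.0924 under decitabine and log2 fold change 1.50 ± 0.52, adjusted p = 0.0637 under the combination. CXCL6, a neutrophil attractant like CXCL8, had 0 and 1.95 in decitabine wells, 36.6 and 19.4 in RG3039 wells and 20.3 and 33.7 in combination wells, against 11.4 and 5.67 in DMSO wells. It was called only against decitabine, for RG3039 and for the combination, as given below.

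**Figure D2:**
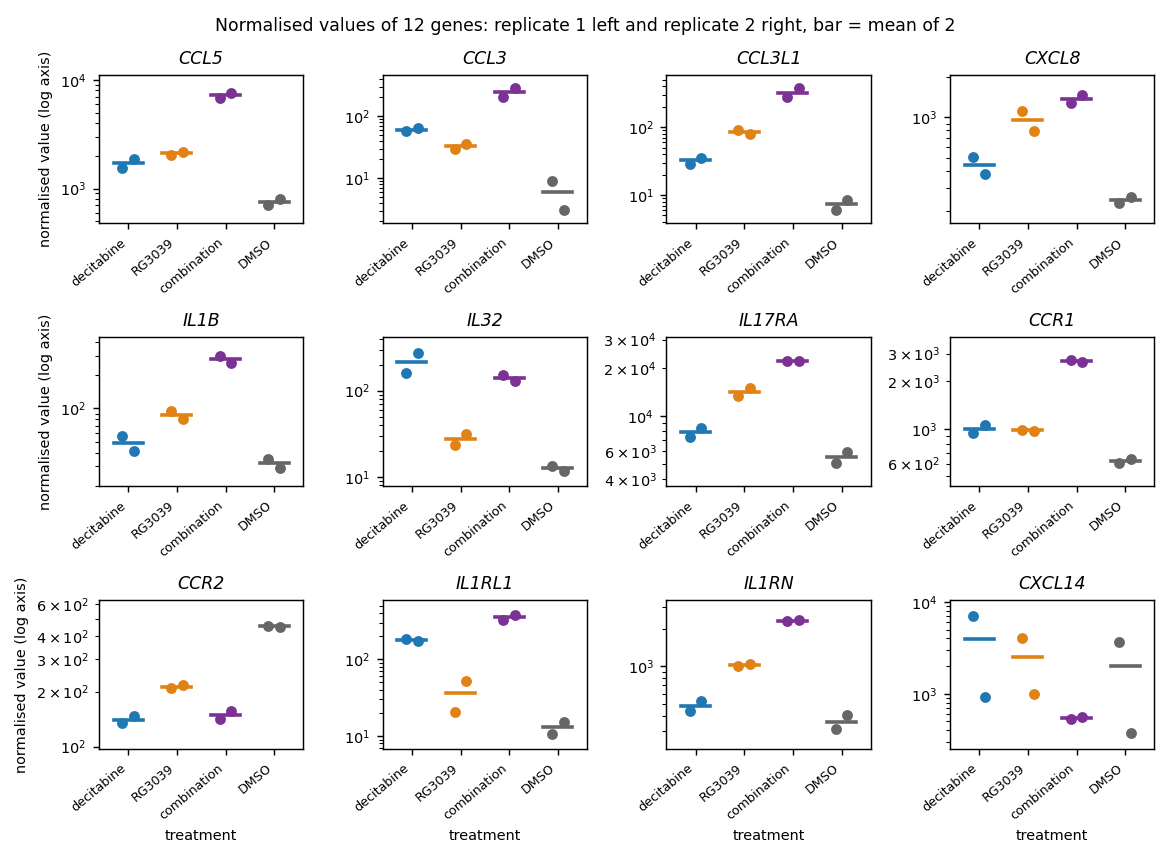
Normalised values of 12 genes in each library on log axes, with treatments along the horizontal axis, replicate 1 left and replicate 2 right within a treatment, and bars at the mean of the pair. The combination pair lies highest for CCL5, CCL3, CCL3L1, CXCL8, IL1B, IL17RA, CCR1, IL1RL1 and IL1RN, DMSO lies highest for CCR2, decitabine for IL32, and CXCL14 splits by replicate.

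Among the interleukins, IL1B, the secreted IL-1 of monocytes, had 56.8 and 41 under decitabine, 94.8 and 79.7 under RG3039 and 300.2 and 257 under the combination, against 35.4 and 29 under DMSO. It was called higher under RG3039 (log2 fold change 1.41 ± 0.35, adjusted p = 0.0406) and the combination (log2 fold change 3.08 ± 0.35, adjusted p = 0.000405), and the RG3039 call was lost without either RG3039 library, either combination library or either DMSO library (adjusted p = 0.0712 to 0.181). IL23A and IL12B encode the 2 chains of IL-23. IL23A had 132 and 133 in decitabine wells, 275 and 169 in RG3039 wells and 257 and 256 in combination wells, against 72.3 and 37.2 in DMSO wells. It was called higher under RG3039 (log2 fold change 2.03 ± 0.37, adjusted p = 0.0111) and the combination (log2 fold change 2.28 ± 0.37, adjusted p = 0.00239). IL12B had 6.74 and 0 in decitabine wells, 8.06 and 6.37 in RG3039 wells and 30.0 and 54 in combination wells, against 0 and 0 in DMSO wells. It was called in the combination (adjusted p = 0.013), where DMSO was listed at 0. Both chains were thus higher in the combination, IL12B at a lower level than IL23A in each well. The IL23A call under RG3039 was lost without RG3039 replicate 1 or DMSO replicate 2 (adjusted p = 0.064 to 0.0932) and the IL12B call without either combination library (adjusted p = 0.0606 to 0.0928).

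IL32, a cytokine of lymphoid and myeloid cells with no known mouse counterpart, rose with decitabine. It had 161 and 273 under decitabine, 23.5 and 31.3 under RG3039 and 152 and 130.5 under the combination, against 13.4 and 11.9 under DMSO. The decitabine and combination libraries lay far above the others, and RG3039 lay between them and DMSO. Decitabine raised it (log2 fold change 3.96 ± 0.42, adjusted p = 0.00173), as did the combination (log2 fold change 3.38 ± 0.42, adjusted p = 0.000599), while RG3039 gave log2 fold change 1.05 ± 0.42, adjusted p = 0.171. IL32 kept all its calls against DMSO without each of the 8 libraries, and it overlaps a long noncoding gene on the opposite strand.

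IL16, a CD4-binding cytokine made from a larger precursor, had 721 and 318 in decitabine wells, 159.5 and 153 in RG3039 wells and 512 and 440.1 in combination wells, against 219 and 289.8 in DMSO wells. It was not called against DMSO. IL18, an IL-1 family cytokine, had 147 and 69.7 in decitabine wells, 49.1 and 46.6 in RG3039 wells and 57.2 and 95 in combination wells, against 120.3 and 119 in DMSO wells. IL19 and IL10, both of the IL-10 family, ranged from 46.4 to 109 and from 21.5 to 37.2. None of IL16, IL18, IL19 and IL10 was called in any of the 3 comparisons with DMSO.

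Of the chemokine receptors, CXCR4, the receptor of CXCL12 that holds blood cells in the marrow, was the most abundant, with 4246 and 5221 under decitabine, 4540.4 and 4299 under RG3039 and 6018 and 7098 under the combination, against 2849.5 and 3455 under DMSO. All treated libraries lay above both DMSO libraries, and the combination was called higher (log2 fold change 1.06 ± 0.16, adjusted p = 0.00182), whereas decitabine gave log2 fold change 0.59 ± 0.16, adjusted p = 0.103 and RG3039 log2 fold change 0.49 ± 0.16, adjusted p = 0.104. CCR1, a receptor of CCL3, CCL5 and CCL23, had 945 and 1051 under decitabine, 979.5 and 971 under RG3039 and 2718 and 2654 under the combination, against 605 and 644 under DMSO. It was called higher under RG3039 (log2 fold change 0.64 ± 0.15, adjusted p = 0.0328) and the combination (log2 fold change 2.10 ± 0.15, adjusted p = 4.98e-05), and the RG3039 call was lost without either RG3039 library, either combination library or either DMSO library (adjusted p = 0.0678 to 0.142). In the combination CCR1 and its ligands CCL3, CCL5 and CCL23 were all called higher.

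CCR2, the receptor of CCL2, fell under every treatment. It had 134 and 146 under decitabine, 209 and 216 under RG3039 and 142 and 156 under the combination, against 457 and 451 under DMSO. The treated libraries did not overlap with DMSO, and decitabine and the combination lay lowest. Decitabine (log2 fold change -1.69 ± 0.23, adjusted p = 0.007), RG3039 (log2 fold change -1.09 ± 0.23, adjusted p = 0.0208) and the combination (log2 fold change -1.60 ± 0.23, adjusted p = 0.00126) were all called lower. The calls were lost without either decitabine library or DMSO replicate 2 (adjusted p = 0.0501 to 0.0622) under decitabine and without either RG3039 library or either DMSO library (adjusted p = 0.0717 to 0.108) under RG3039. The ligand CCL2 and the receptor CCR2 therefore stood in opposite directions in RG3039 and in the combination.

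CXCR3, the receptor of interferon-induced chemokines, had 49.9 and 40.5 in decitabine wells, 45.7 and 12.7 in RG3039 wells and 52.4 and 58.3 in combination wells, against 129 and 151 in DMSO wells. All 6 treated libraries lay under both DMSO libraries, but only RG3039 was called lower (log2 fold change -2.47 ± 0.56, adjusted p = 0.027), and that call was lost without RG3039 replicate 2, combination replicate 2 or either DMSO library (adjusted p = 0.0508 to 0.141). The receptors of CXCL8 differed from each other. CXCR1 had 24.3 and 16.6 in decitabine wells, 39 and 11.9 in RG3039 wells and 83.2 and 110.2 in combination wells, against 14.4 and 10.6 in DMSO wells. It rose in the combination (log2 fold change 2.86 ± 0.65, adjusted p = 0.011). CXCR2 had 703 and 454 in decitabine wells, 510.2 and 456 in RG3039 wells and 474 and 479 in combination wells, against 424 and 598 in DMSO wells and gave log2 fold change -0.08 ± 0.26, adjusted p = 0.862. The CXCR1 call was lost without either combination library or DMSO replicate 2 (adjusted p = 0.0544 to 0.0787).

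CXCR5, the receptor of CXCL13, and CCR3, an eosinophil receptor of CCL5 among others, were low and called higher in the combination. Both had DMSO means under 10, and CCR3 met the selection mean of 10 only through its combination libraries. These calls were thus partly set by the selection. CXCR5 had 17.5 and 6.24 in decitabine wells, 8.06 and 11.1 in RG3039 wells and 27.5 and 49.1 in combination wells, against 0.757 and 9.06 in DMSO wells. Its fit in the combination gave log2 fold change 3.17 ± 1.00, adjusted p = 0.0466. CCR3 had 5.16 and 1.99 in decitabine wells, 7.71 and 3.81 in RG3039 wells and 34.1 and 24.2 in combination wells, against 2.17 and 1.44 in DMSO wells. The combination gave log2 fold change 3.42 ± 0.99, adjusted p = 0.0336. The calls were lost for CXCR5 without either decitabine library, either RG3039 library, either combination library or DMSO replicate 1 (adjusted p = 0.051 to 0.204) and for CCR3 without either combination library or either DMSO library (adjusted p = 0.0652 to 0.178). CCR3 spans all of CCR1 on the opposite strand, and CXCR5 overlaps BCL9L, so without the strand setting of the counting their reads cannot be told apart from those of the neighbour. CCR6, CCR10, CCR4 and CX3CR1, receptors of CCL20, CCL28, CCL22 and CX3CL1, were not called against DMSO, nor was the pseudogene CCR12P.

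Of the interleukin receptor subunits, IL17RA, the chain shared by receptors of the IL-17 family, was the most abundant gene of all 69. It had 7372 and 8357 under decitabine, 13235 and 14902 under RG3039 and 22141 and 22152 under the combination, against 5063 and 5935 under DMSO. The order was the combination, RG3039, decitabine and DMSO with no overlap between groups. RG3039 raised it (log2 fold change 1.36 ± 0.14, adjusted p = 0.000836), as did the combination (log2 fold change 2.01 ± 0.14, adjusted p = 4.15e-05), and decitabine gave log2 fold change 0.52 ± 0.14, adjusted p = 0.0919. IL17RE, which joins IL17RA in the receptor of IL-17C, had 57.1 and 100.0 in decitabine wells, 33.6 and 48 in RG3039 wells and 93 and 122 in combination wells, against 30.6 and 17.2 in DMSO wells. It was called in the combination (log2 fold change 2.17 ± 0.48, adjusted p = 0.0102), a call lost without combination replicate 2 or DMSO replicate 2 (adjusted p = 0.0646 to 0.0763). IL17RC and IL17RD, the partners for other IL-17 cytokines, were not called.

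The receptor chains of the gamma-chain and IL-4 family split. IL4R, the binding chain for IL-4, had 532 and 583 under decitabine, 839 and 729.9 under RG3039 and 1503 and 1453 under the combination, against 466 and 347 under DMSO. It was higher under RG3039 (log2 fold change 0.96 ± 0.20, adjusted p = 0.0182) and the combination (log2 fold change 1.88 ± 0.20, adjusted p = 0.000249). IL2RG, the common gamma chain, had 564 and 650.2 under decitabine, 339 and 412 under RG3039 and 404 and 544 under the combination, against 876 and 1237 under DMSO. It was lower under RG3039 (log2 fold change -1.48 ± 0.24, adjusted p = 0.00648) and the combination (log2 fold change -1.15 ± 0.24, adjusted p = 0.00798). IL13RA1, the other partner of IL4R, had 498 and 622 under decitabine, 410.4 and 473 under RG3039 and 752 and 646 under the combination, against 671 and 1047 under DMSO. It was lower under RG3039 (log2 fold change -0.93 ± 0.24, adjusted p = 0.0482). IL4R thus rose where both partner chains fell under RG3039. Calls were lost under RG3039 for IL4R without either RG3039 library or DMSO replicate 2 (adjusted p = 0.067 to 0.12), for IL2RG without RG3039 replicate 1 or DMSO replicate 2 (adjusted p = 0.0504 to 0.0553) and for IL13RA1 without either decitabine library, either RG3039 library, either combination library or DMSO replicate 2 (adjusted p = 0.0613 to 0.238), and under the combination for IL2RG without combination replicate 1 or DMSO replicate 2 (adjusted p = 0.0585 to 0.0716).

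IL6R and IL6ST, the binding chain of IL-6 and the signalling chain gp130, were lower in different comparisons. IL6R had 4071 and 4431 under decitabine, 4529 and 4127 under RG3039 and 3738 and 3897 under the combination, against 6087 and 5305 under DMSO. It was called lower in the combination (log2 fold change -0.57 ± 0.14, adjusted p = 0.0144). IL6ST had 90.1 and 144 in decitabine wells, 45.8 and 60.8 in RG3039 wells and 157 and 142 in combination wells, against 115 and 186 in DMSO wells. It was called lower under RG3039 (log2 fold change -1.45 ± 0.38, adjusted p = 0.0451) but not in the combination (log2 fold change 0.03 ± 0.38, adjusted p = 0.969). The calls were lost for IL6R without either combination library or DMSO replicate 1 (adjusted p = 0.0645 to 0.0978) and for IL6ST without decitabine replicate 2, either RG3039 library, either combination library or DMSO replicate 2 (adjusted p = 0.0516 to 0.236). Both chains of the IL-10 receptor were higher in the combination. IL10RA, the ligand-binding chain, had 165 and 236 under decitabine, 284 and 313 under RG3039 and 619 and 797 under the combination, against 163 and 138 under DMSO. It gave log2 fold change 0.99 ± 0.26, adjusted p = 0.0492 under RG3039 and log2 fold change 2.22 ± 0.26, adjusted p = 0.000445 under the combination. IL10RB, the chain shared with other cytokines of the family, had 2191 and 2491 under decitabine, 2830.3 and 2556 under RG3039 and 3271 and 3535 under the combination, against 2078 and 2337 under DMSO. In the combination it had log2 fold change 0.63 ± 0.15, adjusted p = 0.0134. The IL10RA call under RG3039 was lost without either RG3039 library, either combination library or either DMSO library (adjusted p = 0.0769 to 0.208), and the IL10RB call without either combination library or DMSO replicate 1 (adjusted p = 0.0585 to 0.0919).

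The IL-1 receptor family contained the subunits with the greatest called change under decitabine and in the combination. IL1RL1, the receptor of IL-33, had 183 and 175 under decitabine, 20.3 and 52 under RG3039 and 328 and 382 under the combination, against 10.5 and 15.4 under DMSO. Decitabine (log2 fold change 3.71 ± 0.47, adjusted p = 0.00443) and the combination (log2 fold change 4.69 ± 0.47, adjusted p = 0.000197) raised it, and RG3039 gave log2 fold change 1.29 ± 0.47, adjusted p = 0.134. IL1R1, the signalling receptor of IL-1, had 78.6 and 119.8 in decitabine wells, 70.7 and 69.7 in RG3039 wells and 344 and 379.5 in combination wells, against 23.1 and 81 in DMSO wells. Its fit in the combination gave log2 fold change 3.03 ± 0.52, adjusted p = 0.00297. IL18R1, the binding chain for IL-18, had 26.8 and 48.7 in decitabine wells, 25.6 and 62.8 in RG3039 wells and 138 and 157 in combination wells, against 7.03 and 10.8 in DMSO wells. The combination gave log2 fold change 3.93 ± 0.57, adjusted p = 0.0013. The accessory chains were not called. IL1RAP gave log2 fold change 0.00 ± 0.44, adjusted p = 0.999 and IL18RAP log2 fold change -0.05 ± 0.74, adjusted p = 0.973 in the combination. The IL1RL1 call under decitabine was lost without either decitabine library (adjusted p = 0.0565 to 0.0598). IL1RL1 and IL18R1 overlap by 40509 bases on the same strand.

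IL5RA, the alpha chain of the IL-5 receptor, was higher in both groups that received decitabine. It had 92.3 and 92.2 under decitabine, 9.72 and 27.6 under RG3039 and 52.4 and 68.4 under the combination, against 10.01 and 11.2 under DMSO. It gave log2 fold change 3.01 ± 0.57, adjusted p = 0.0319 under decitabine and log2 fold change 2.39 ± 0.57, adjusted p = 0.0146 in the combination. Both calls were lost when libraries were left out: under decitabine without either decitabine library, either combination library or either DMSO library (adjusted p = 0.0653 to 0.16) and in the combination without either combination library or either DMSO library (adjusted p = 0.0509 to 0.0911). IL23R, the receptor chain specific to IL-23, had 212 and 295 in decitabine wells, 91.3 and 63.6 in RG3039 wells and 189.6 and 205 in combination wells, against 114 and 75.4 in DMSO wells. It was called in the combination (log2 fold change 1.08 ± 0.34, adjusted p = 0.0451), a call lost without either decitabine library, RG3039 replicate 1, either combination library or DMSO replicate 2 (adjusted p = 0.0507 to 0.219). Of the 28 subunits, 14 were called in no comparison, a count not made over all genes. Among these, IL2RA, the alpha chain of the IL-2 receptor, gave 239.7 and 57.3 in the combination, against 36.8 and 23.5 in DMSO, the combination pair itself differing widely. IL22RA2, counted with the subunits by its name, encodes a soluble binding protein for IL-22.

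**Figure D3:**
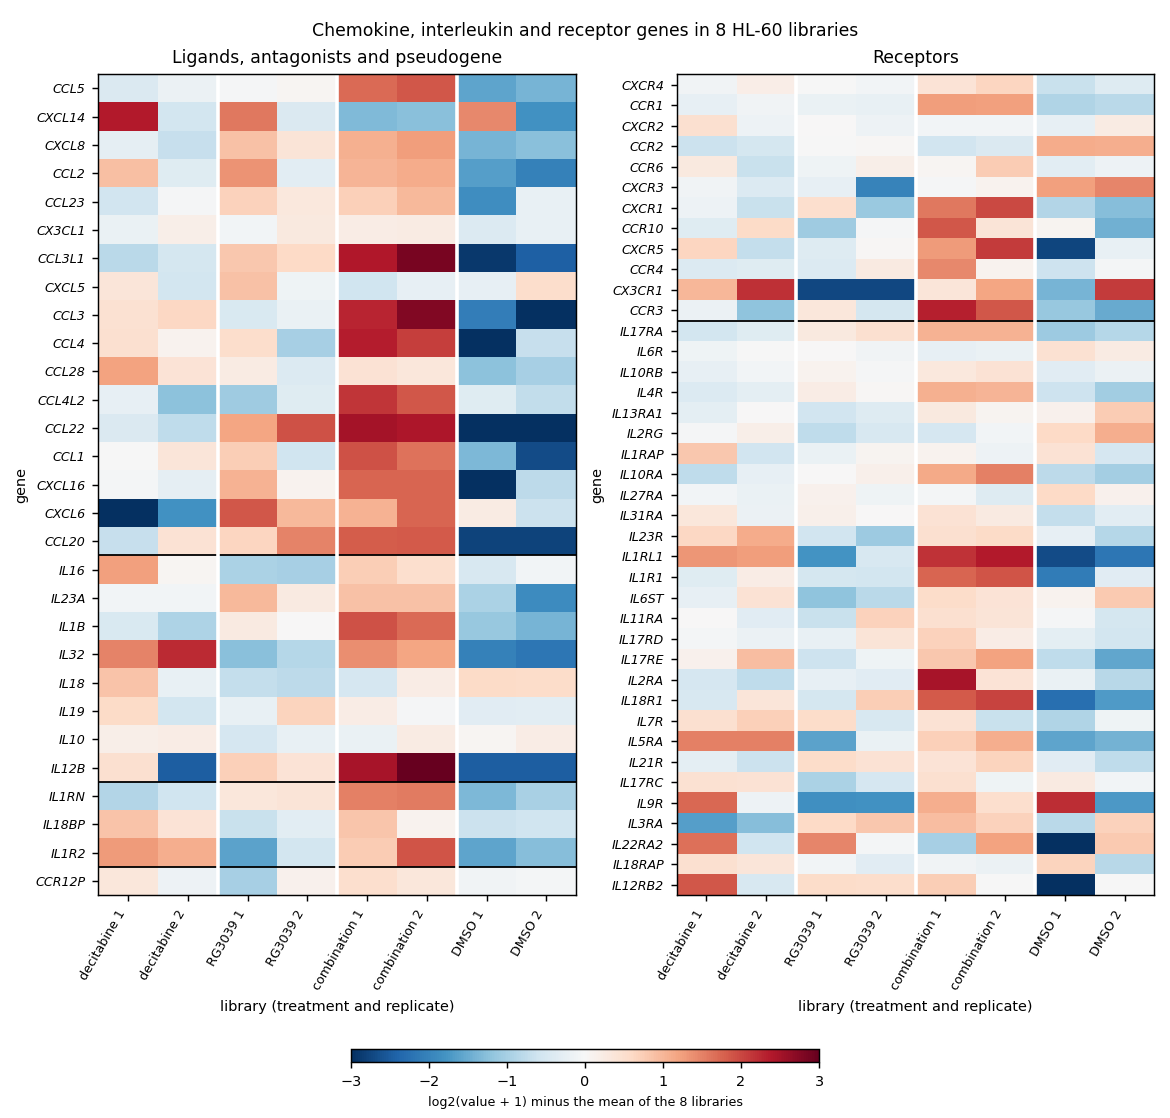
Log2(value + 1) of the 69 genes in each of the 8 libraries, shown as the difference from the gene's own mean over the libraries, with colours saturating at -3 and 3; genes are rows grouped by role, libraries are columns from decitabine to DMSO. The combination columns are red for most chemokine ligands, IL1RN, IL1R1 and IL18R1, and DMSO columns are red for CCR2, CXCR3 and IL2RG.

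Both antagonists of IL-1 itself, IL1RN and IL1R2, were called higher in the combination, as IL1B was. IL1RN, the soluble antagonist that occupies the IL-1 receptor, had 433 and 522 under decitabine, 1006 and 1030.5 under RG3039 and 2283 and 2352 under the combination, against 311 and 403 under DMSO. It was far more abundant than IL1B in every library, and was called higher under RG3039 (log2 fold change 1.52 ± 0.19, adjusted p = 0.00178) and the combination (log2 fold change 2.71 ± 0.19, adjusted p = 4.39e-05). IL1R2, a decoy receptor that binds IL-1 without signalling, had 73.6 and 63.7 in decitabine wells, 9.01 and 19.8 in RG3039 wells and 51 and 112 in combination wells, against 9.23 and 11.6 in DMSO wells. Decitabine gave log2 fold change 2.62 ± 0.60, adjusted p = 0.0611 for IL1R2 and the combination log2 fold change 2.76 ± 0.60, adjusted p = 0.00932, the second call being lost without combination replicate 2 (adjusted p = 0.0879). IL18BP, the soluble binding protein of IL-18, had 82.3 and 59.9 in decitabine wells, 27.8 and 35.9 in RG3039 wells and 81 and 48.2 in combination wells, against 28.5 and 29.4 in DMSO wells. In the combination it had log2 fold change 1.08 ± 0.46, adjusted p = 0.118, and it overlaps NUMA1.

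Against decitabine alone the combination raised 12 of the 69 genes and lowered 0, where 3.94% of all genes were called higher and 3.39% lower. These were CCL5, CCL3L1, CCL4L2, CCL22, CXCL6, CXCL8, IL1B, CCR1, IL17RA, IL4R, IL10RA and IL1RN. CCL5 (log2 fold change 2.08 ± 0.16, adjusted p = 0.000672), IL1RN (log2 fold change 2.28 ± 0.19, adjusted p = 0.000806), IL17RA (log2 fold change 1.50 ± 0.14, adjusted p = 0.000926) and CCR1 (log2 fold change 1.43 ± 0.15, adjusted p = 0.00133) had the smallest p-values, and CXCL8 (log2 fold change 1.65 ± 0.23, adjusted p = 0.00405), IL4R (log2 fold change 1.41 ± 0.20, adjusted p = 0.00414) and CCL3L1 (log2 fold change 3.28 ± 0.42, adjusted p = 0.00251) followed. Each of these kept its call without each library. Lost calls were IL10RA without combination replicate 2 (adjusted p = 0.0556), IL1B without combination replicate 1 (adjusted p = 0.0539), CCL4L2 without either decitabine library or either combination library (adjusted p = 0.0625 to 0.185), CCL22 without either decitabine library, either RG3039 library or either combination library (adjusted p = 0.053 to 0.19) and CXCL6 without decitabine replicate 1, RG3039 replicate 1 or either combination library (adjusted p = 0.0518 to 0.173).

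Against RG3039 alone the combination raised 11 and lowered 0, where 1.49% of all genes were called higher and 0.787% lower. CCL5 (log2 fold change 1.77 ± 0.16, adjusted p = 0.00136) kept its call without each library. CCR1 (log2 fold change 1.46 ± 0.15, adjusted p = 0.00288) lost it without combination replicate 1 (adjusted p = 0.0658), and IL1RL1 (log2 fold change 3.40 ± 0.47, adjusted p = 0.00943) without RG3039 replicate 1 or either combination library (adjusted p = 0.0509 to 0.104). IL1RN (log2 fold change 1.19 ± 0.19, adjusted p = 0.017) lost it without either RG3039 library or either combination library (adjusted p = 0.0643 to 0.152) and IL32 (log2 fold change 2.33 ± 0.42, adjusted p = 0.0273) without either RG3039 library or either combination library (adjusted p = 0.0615 to 0.22). CCL3 (log2 fold change 2.85 ± 0.53, adjusted p = 0.0316) was lost without either decitabine library, either RG3039 library or either combination library (adjusted p = 0.0533 to 0.194). The other calls, of CCL3L1, IL17RA, IL4R, IL10RA and IL1B, had adjusted p from 0.0455 to 0.0497. Those of CCL3L1, IL17RA and IL4R ended without either decitabine library, either RG3039 library or either combination library (adjusted p = 0.0582 to 0.294), and those of IL10RA and IL1B without any 1 of the 8 libraries (adjusted p = 0.0506 to 0.299). In all, 8 genes were called higher in the combination against DMSO and against each single drug: CCL5, CCL3L1, IL1B, CCR1, IL17RA, IL4R, IL10RA and IL1RN. The share of all genes with this joint pattern was not counted, and the split of reads between CCL3L1 and CCL3 is uncertain.

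RG3039 against decitabine raised 4 genes and lowered 5, where 1.92% of all genes were called higher and 2.67% lower. IL17RA (log2 fold change 0.84 ± 0.14, adjusted p = 0.00969), IL1RN (log2 fold change 1.10 ± 0.19, adjusted p = 0.0125), CXCL8 (log2 fold change 1.11 ± 0.23, adjusted p = 0.0269) and CXCL6 (adjusted p = 0.0393, at 0 in one decitabine library) were higher with RG3039. IL32 (log2 fold change -2.91 ± 0.42, adjusted p = 0.00523), IL1RL1 (log2 fold change -2.42 ± 0.47, adjusted p = 0.0192), IL23R (log2 fold change -1.70 ± 0.34, adjusted p = 0.0222), IL16 (log2 fold change -1.61 ± 0.35, adjusted p = 0.0334) and IL5RA (log2 fold change -2.41 ± 0.57, adjusted p = 0.0463) were lower with RG3039. Each of the 9 calls was lost without at least 1 library: IL17RA without decitabine replicate 1 or RG3039 replicate 2 (adjusted p = 0.0693 to 0.0848), IL1RN without decitabine replicate 1 or either RG3039 library (adjusted p = 0.0741 to 0.0827), IL32 without decitabine replicate 2 (adjusted p = 0.0596), IL1RL1 without either decitabine library or RG3039 replicate 1 (adjusted p = 0.0985 to 0.111) and IL23R without either decitabine library or either RG3039 library (adjusted p = 0.0553 to 0.142). CXCL8 was no longer called without either decitabine library, either RG3039 library or either combination library (adjusted p = 0.0513 to 0.186), nor CXCL6 without either decitabine library, either RG3039 library or either combination library (adjusted p = 0.0596 to 0.224). IL16 lost its call without decitabine replicate 1, either RG3039 library or either combination library (adjusted p = 0.0617 to 0.152) and IL5RA without either decitabine library, RG3039 replicate 1, either combination library or either DMSO library (adjusted p = 0.0542 to 0.219).

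The single drugs and the combination were also compared through the interaction, (combination - decitabine) - (RG3039 - DMSO). It tests if both drugs together gave more or less than their single effects added up on the log scale. None of the 69 genes was called by limma, and of all genes 0% were called higher and 0% lower. At an unadjusted p under 0.05 there were 11 of the 69 and 1014 of 17534. The interaction was -0.41 in the median of the chemokine ligands and 0.89 in that of the chemokine receptors, which describes the lists and was not tested. Of the 33 genes called higher in the combination, 16 were called in neither single drug, and of the 3 called lower, IL6R was. With no gene called in the interaction, these are not shown to differ from the sum of both drugs. How often this pattern occurred over all genes was not counted.

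Several of the genes lie side by side. On chromosome 17, CCL5, CCL23, CCL3, CCL4, CCL3L1 and CCL4L2 lie between 35871491 and 36212878 (GRCh38), and 6 of 6 were called higher in the combination. Of 7 other protein-coding genes tested, RDM1 within the stretch and the nearest on either side, RDM1 was called higher and none lower. Over all genes 11.4% were called higher. The split of reads between CCL3 and CCL3L1, and between CCL4 and CCL4L2, is uncertain, so the calls within a pair are not separate results. CCL3, CCL3L1 and CCL4 had DMSO means under 10. On chromosome 2, IL1R2, IL1R1, IL1RL1, IL18R1 and IL18RAP lie between 101991844 and 102452565, and 4 of 5 were called higher. Of the 6 tested protein-coding genes nearest on either side, at any distance, MAP4K4 was called higher and MRPS9 lower. IL1RL1 and IL18R1 overlap on the same strand, and IL18R1 had a DMSO mean under 10. IL1B and IL1RN, further along chromosome 2, were both called higher. The receptor genes on chromosome 3 differed, with CCR1 and CCR3 higher and CCR2 lower. CCR3 had a DMSO mean under 10, and its reads could not be told apart from those of CCR1.

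**Figure D4:**
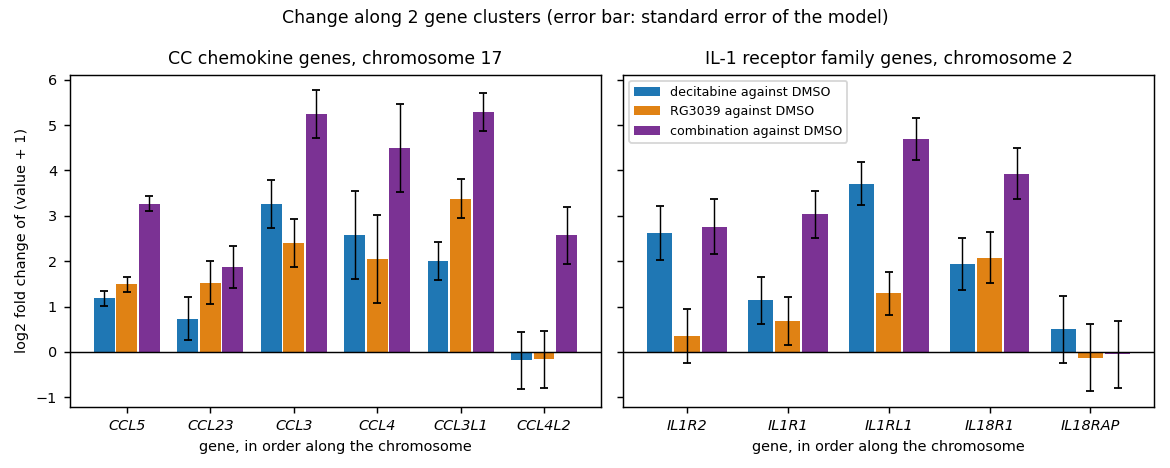
Log2 fold change of (value + 1) against DMSO for genes of the CC chemokine cluster and the IL-1 receptor family cluster in chromosomal order, with bars for decitabine, RG3039 and the combination and error bars of 1 standard error from the model. The combination bars of the CC chemokines run from 1.87 for CCL23 to 5.29 for CCL3L1, and IL18RAP lies at 0.50 under decitabine, -0.13 under RG3039 and -0.05 under the combination, each within its error bar of 0.

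The lists of related pathway genes are set beside all genes, of which 11.4% were called higher and 12.7% lower in the combination. Of 25 tested JAK and STAT pathway genes, 0 were called higher and 2 lower there, STAT5B (log2 fold change -1.96 ± 0.31, adjusted p = 0.00209) and STAT6 (log2 fold change -0.62 ± 0.17, adjusted p = 0.0275), which are signal transducers of the gamma-chain and IL-4 receptors. Both were also called lower under RG3039 (log2 fold change -2.10 ± 0.31, adjusted p = 0.00411 for STAT5B and log2 fold change -0.65 ± 0.17, adjusted p = 0.0484 for STAT6). The STAT6 calls were lost without either decitabine library, either RG3039 library, either combination library or DMSO replicate 2 (adjusted p = 0.0642 to 0.251) under RG3039 and without either combination library or DMSO replicate 2 (adjusted p = 0.114 to 0.143) in the combination. Of 25 IL-1 and Toll receptor pathway genes, 5 were called higher and 2 lower in the combination, beside the same 11.4% and 12.7% of all genes. Among them TLR6 (log2 fold change 2.42 ± 0.22, adjusted p = 0.00015), CD14 (log2 fold change 2.34 ± 0.24, adjusted p = 0.000218), the co-receptor for bacterial lipopolysaccharide, and TLR4 (log2 fold change 0.92 ± 0.18, adjusted p = 0.00537) had the smallest p-values, and the TLR4 call was lost without combination replicate 2 (adjusted p = 0.0528). Under RG3039, CD14 (log2 fold change 1.67 ± 0.24, adjusted p = 0.0032) and TLR6 (log2 fold change 1.44 ± 0.22, adjusted p = 0.00484) were higher and SIGIRR, an inhibitory receptor of the family, lower (log2 fold change -1.08 ± 0.24, adjusted p = 0.0236), a call lost without either RG3039 library or either DMSO library (adjusted p = 0.0501 to 0.128).

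Of 28 genes of chemokine receptor coupling and atypical receptors, 4 were called higher and 3 lower in the combination, close to the 11.4% and 12.7% of all genes. RGS2, a regulator that shuts off G-protein signals, had 428 and 338 in decitabine wells, 344 and 245 in RG3039 wells and 696 and 825 in combination wells, against 122 and 98.8 in DMSO wells. It was called higher under decitabine (log2 fold change 1.78 ± 0.26, adjusted p = 0.0102), RG3039 (log2 fold change 1.39 ± 0.26, adjusted p = 0.0118) and the combination (log2 fold change 2.77 ± 0.26, adjusted p = 0.000159). CCRL2, an atypical receptor that does not signal through G proteins, had 53.5 and 41.2 in decitabine wells, 13.3 and 25.3 in RG3039 wells and 87.6 and 136 in combination wells, against 11.3 and 3 in DMSO wells. Its fit in the combination gave log2 fold change 3.98 ± 0.67, adjusted p = 0.00264. GNG2, a G-protein gamma subunit, was higher under RG3039 (log2 fold change 1.29 ± 0.28, adjusted p = 0.0224) and the combination (log2 fold change 1.80 ± 0.28, adjusted p = 0.00183), and RGS18 lower under RG3039 (log2 fold change -1.13 ± 0.24, adjusted p = 0.0216). Calls were lost for RGS2 without either decitabine library or DMSO replicate 2 (adjusted p = 0.0521 to 0.0894) under decitabine and without RG3039 replicate 1 or DMSO replicate 2 (adjusted p = 0.071 to 0.0935) under RG3039. Under RG3039 those of GNG2 and RGS18 ended without either RG3039 library or DMSO replicate 1 (adjusted p = 0.0717 to 0.14) and without either RG3039 library or DMSO replicate 2 (adjusted p = 0.0817 to 0.125).

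Of 23 cytokine and receptor genes with other names, 8 were called higher and 1 lower in the combination, beside 11.4% and 12.7% of all genes. CD74, the receptor of the cytokine MIF, was lower under decitabine (log2 fold change -1.03 ± 0.20, adjusted p = 0.0323), RG3039 (log2 fold change -1.13 ± 0.20, adjusted p = 0.00874) and the combination (log2 fold change -1.35 ± 0.20, adjusted p = 0.00132). TNF (log2 fold change 0.96 ± 0.17, adjusted p = 0.00335) and LTB (log2 fold change 1.05 ± 0.18, adjusted p = 0.00296), cytokines of the TNF family, were higher in the combination and also under RG3039 (log2 fold change 0.95 ± 0.17, adjusted p = 0.00916 for TNF and log2 fold change 0.88 ± 0.18, adjusted p = 0.0184 for LTB). The call of CD74 was lost without either decitabine library, either RG3039 library, either combination library or DMSO replicate 2 (adjusted p = 0.0583 to 0.156) under decitabine and without either RG3039 library or DMSO replicate 2 (adjusted p = 0.0547 to 0.0625) under RG3039, and those of TNF and LTB without either RG3039 library (adjusted p = 0.0562 to 0.0698) and without either RG3039 library or DMSO replicate 2 (adjusted p = 0.089 to 0.113). Under decitabine, 0 genes of the JAK and STAT list and 0 of the IL-1 and Toll list were called, where limma gave an unadjusted p under 0.05 for 4 and 5 of 25, beside 3130 of all 17534 genes.

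At the edge of the selection lay CX3CR1, CCL20 and CCR3, with means of 11.4, 10.7 and 10.1. Just outside were IL1A, IL17D and IL17B, with 8.88, 7.14 and 5.70. Of the 69 genes, 28 were called in none of the 7 comparisons, 41 in at least 1 and 39 in at least 1 comparison with DMSO. The same counts were not made over all genes.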

How the data were processed

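The authors deposited a normalised signal for 60240 genes in 8 libraries. The submitters' processing notes name STAR, featureCounts, Salmon 1.2.1, limma and DESeq2, and the build hg38; which step made the values, and the strand setting, are not given in the sources used here. Low values were whole multiples of 1 read, within 0.02, for 74.4% to 80.8% of values a library, so no count test was run. That step gave the depth.

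Genes with a mean of at least 10 (17534) were fitted as log2(value + 1) over all 8 libraries (R 4.3.3, limma 3.58.1; lmFit, then contrasts.fit and eBayes with trend), with 4 residual and 5.51 prior degrees of freedom. Tests were two-sided in 7 contrasts, with Benjamini-Hochberg adjustment within each. Fold changes on this scale understate those of low genes. Members and gene lists were chosen with earlier results of these data known. Named were genes called in any contrast, the 4 most abundant of each role, the 3 genes on either side of the threshold, the L copies, and the 3 genes of each pathway list with the smallest p against DMSO. The code of the fit was run on simulated data with independent normal noise, which does not test its calls in these libraries. Coordinates are from GENCODE 29 on GRCh38, where all 69 identifiers were found. Alternatives were a pseudocount of 5, no filter, a mean of at least 50, quantile scaling, no trend, only the groups compared, a replicate block, and leaving out each library. Tables and plots were made with Python 3.11.15, pandas 2.3.3, numpy 2.4.6 and matplotlib 3.10.9.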

Additional observations from a re-analysis of the deposited data

How the results depend on the processing

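No call reversed direction under any alternative tried. The number of the 69 genes called under decitabine against DMSO, 7, became 11 with the replicate block, 2 with only the groups compared and 1 to 7 without each library. Under RG3039 against DMSO, 19 became 11 with no filter, 12 without the trend, 7 with only the groups compared and 7 to 18 without each library. In the combination against DMSO, 36 became 21 to 36 without each library. In the combination against decitabine, 12 became 8 to 15 without each library. Against RG3039, the 11 of the combination became 4 with no filter, 5 without the trend and 1 to 10 without each library. The 9 of RG3039 against decitabine became 2 without the trend, 3 with only the groups compared and 1 to 9 without each library. The interaction gave 0 in every fit. Of the 94 calls, 94 were kept under the replicate block, 91 with a pseudocount of 5, 82 under quantile scaling, 69 with no filter, 67 without the trend and 67 with only the groups compared. With a mean of at least 50, 72 of the 74 calls that could be tested were kept. The replicate numbers were not taken to pair the wells: differences between replicates correlated between groups at -0.0767 to 0.161 across all genes, over 0.1 for 3 of 6 pairs of groups and under 0 between decitabine and the combination, and at -0.138 to 0.306 across the 69 genes. For the pathway genes the same alternatives were chosen after seeing the data. Depth limits low genes, where a value of 10 is 6.6 to 14.2 reads.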

Other observations

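IL1A, the second IL-1 agonist, lies just under the selection threshold. It had 2.70 and 8.31 under decitabine, 9.41 and 0 under RG3039 and 22.5 and 26.7 under the combination, against 0 and 1.51 under DMSO. IL17D had 10.8 and 5.20 under decitabine, 2.69 and 4.775 under RG3039 and 4.99 and 0.702 under the combination, against 9.84 and 18.1 under DMSO. IL17B had 4.045 and 2.08 under decitabine, 12.1 and 7.96 under RG3039 and 14.15 and 0 under the combination, against 3.78 and 1.51 under DMSO. The 3 names next in mean were IL2RB, CXCR2P1 and IL20RB. IL2RB reached 20.7 in RG3039 replicate 1 and 18.9 in combination replicate 1, with 0.339 and 3.59 in replicate 2. It was listed at 0 in both DMSO libraries. CXCR2P1, a pseudogene of CXCR2, had 1.35 and 6.24 under decitabine, 2.69 and 3.18 under RG3039 and 0.832 and 0 under the combination, against 16.7 and 10.6 under DMSO. IL20RB had 0 and 0 under decitabine, 12.1 and 11.1 under RG3039 and 0 and 6.32 under the combination, against 0 and 7.55 under DMSO. None of these was tested, since their means lie under 10, and they were chosen after their values were seen.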
